A study of Mus musculus with 12 samples.

Results

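A set of 10 genes of the Eph receptor and ephrin family was examined in single-nucleus RNA sequencing of the embryonic mouse cortex. They are the receptors Epha3, Epha4, Epha5, Epha6, Epha7, Ephb1 and Ephb2 and the ligands Efna5, Efnb1 and Efnb2. They were taken by name from the 23513 genes of the count tables, with earlier results of these data known, and all 10 were found. Each was described in the 25 clusters that the authors defined and in 11 embryos. C57BL/6J dams received 6 daily intraperitoneal injections during pregnancy, the first on E8.5 and the last on E13.5. Control dams got saline, and exposed dams got EtOH diluted to 25% v/v in saline at a dose of 2.5 g/kg. The cortices of both hemispheres were collected on E14.5, which the sample labels give as embryonic day 14. The saline group held 5 embryos, S1-1 and S1-2 of dam S1 and S2-1, S2-2 and S2-4 of dam S2. The EtOH group held 6 embryos, E1-1 and E1-2 of dam E1 and E2-1 to E2-4 of dam E2. Dams S1 and E1 formed batch 1 and dams S2 and E2 formed batch 2. With 2 dams per treatment, the p-values below take littermates as independent and measure the spread between embryos. Embryo S2-3 was not used here.

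Eph receptors are receptor tyrosine kinases, and their ligands, the ephrins, are themselves held at the cell surface, so the pair passes signals only between cells that touch. A-class ephrins are tethered by a lipid anchor and mainly bind EphA receptors, whereas B-class ephrins span the membrane and mainly bind EphB receptors. An ephrin can also signal back into the cell that carries it. Epha4 is known for binding ephrins of both classes. In the developing forebrain this family is known for sorting cells at boundaries, for guiding axons and migrating neurons by contact repulsion, and for acting in progenitors at the ventricular surface.

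The tables held whole-number UMI counts for 50550 nuclei with 615 to 98707 UMIs each. The 30349 saline nuclei gave totals of 44017566 to 83061737 UMIs per embryo and medians of 6325 to 9051 per nucleus, and the 20201 EtOH nuclei gave 14078316 to 38034349 and 4071.5 to 6911. The authors' classes were radial glial cells (RGC, Clusters 2, 3, 12, 20 and 21), intermediate progenitors (IPC, Clusters 6 and 17), projection neurons (PN, Clusters 1, 4, 8, 9, 16, 22, 24 and 25), interneurons (Clusters 5, 7, 10, 13, 15, 18 and 23), striatal interneurons (Cluster 11), Cajal-Retzius cells (Cluster 14) and unclassified neurons (Cluster 19). Cluster 11 is called striatal neurons below. The defining markers were highest where these names put them (Eomes in Cluster 6, Neurod2 in Cluster 9, Ebf1 in Cluster 11, Reln in Cluster 14, Rspo2 in Cluster 21), except that the progenitor gene Sox2 was highest in interneuron Cluster 23. Of 50226 barcode sequences, 314 occurred in more than 1 embryo. Summed over all nuclei, the 4 microglial markers lay between 14.4 and 32.2 CPM in saline and between 27.2 and 36.9 CPM in EtOH, the 3 red cell markers between 5.12 and 78.9 and between 14.7 and 35.2, the 2 cortical hem markers between 54.0 and 245 and between 6.32 and 98.7, the 5 meningeal fibroblast markers between 4.78 and 25.4 and between 2.46 and 7.03, and no marker of any list was at 0. Saline embryo S2-1 stood apart for Efna5, as described below.

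The gene bodies differ widely in length, from 12.9 kb for Efnb1 on chromosome X to 952 kb for Epha6 on chromosome 16 in the GENCODE annotation of GRCm38, and RNA of nuclei is rich in unspliced transcripts. Levels are therefore compared between clusters for the same gene and not between genes. The RefSeq promoter windows, 250 bases before to 50 bases after the start of the gene, matched all 10 members. Their GC content ran from 55.7% for Ephb1 to 73.3% for Efna5, against a median of 52.7% over 32851 promoters. As a description of regulatory sequence, the windows were searched on both strands for the neurogenic E-box CAGATG or CATCTG, found in 17.2% of all promoters, and for the homeodomain motif TAATTA, found in 5.29%. Epha6 held 1 E-box, Epha5 held 1 TAATTA, and the letters were not in the windows of the other 8 members. A match is not a binding site. The windows are shown for Epha3, the receptor with the most stable difference between treatments, and for the 2 members with a match, whose letters are in capitals, all in GRCm38.p6 on the minus strand and 5′ to 3′.
Epha3, chr16:63864126-63864425: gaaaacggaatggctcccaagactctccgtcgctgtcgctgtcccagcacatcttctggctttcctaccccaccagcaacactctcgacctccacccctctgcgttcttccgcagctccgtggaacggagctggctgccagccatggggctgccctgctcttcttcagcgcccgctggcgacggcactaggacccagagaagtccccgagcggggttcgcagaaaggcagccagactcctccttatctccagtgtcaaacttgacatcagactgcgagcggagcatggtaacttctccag
Epha5, chr5:84417333-84417632: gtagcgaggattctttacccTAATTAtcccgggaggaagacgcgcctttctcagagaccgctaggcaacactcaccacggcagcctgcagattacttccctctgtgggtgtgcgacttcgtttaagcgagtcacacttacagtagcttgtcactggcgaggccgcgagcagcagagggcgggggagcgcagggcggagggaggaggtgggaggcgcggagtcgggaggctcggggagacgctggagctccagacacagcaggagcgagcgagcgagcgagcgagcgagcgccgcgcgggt
Epha6, chr16:60605482-60605781: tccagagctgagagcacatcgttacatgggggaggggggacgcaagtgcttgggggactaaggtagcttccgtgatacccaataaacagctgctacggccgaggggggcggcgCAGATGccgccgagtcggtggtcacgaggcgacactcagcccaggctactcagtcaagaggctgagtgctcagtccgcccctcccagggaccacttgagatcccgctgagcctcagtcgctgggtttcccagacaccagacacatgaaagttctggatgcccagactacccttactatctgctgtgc

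Levels are given as counts per 1000000 UMIs (CPM), taken from the sum of an embryo's nuclei in a cluster, as mean ± SD over the embryos with at least 10 nuclei there. Each member had its own map over the clusters, and 8 different clusters held the highest level of at least 1 member. The highest level was between 3.23 times (Ephb2) and 56.1 times (Epha6) the lowest. The clusters were built from these genes among others, so the differences between clusters are descriptions without a test. The order of the clusters was repeatable: between pairs of embryos, the Spearman correlation of a member's levels over the clusters had a median between 0.79 (Efnb1) and 0.96 (Epha4). Most neighbours in that order did not differ beyond the spread of their within-embryo difference, with only 1 (Efnb2) to 4 (Epha3, Epha4) of the 24 neighbouring steps larger than 1 SD.

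**Figure D1:**
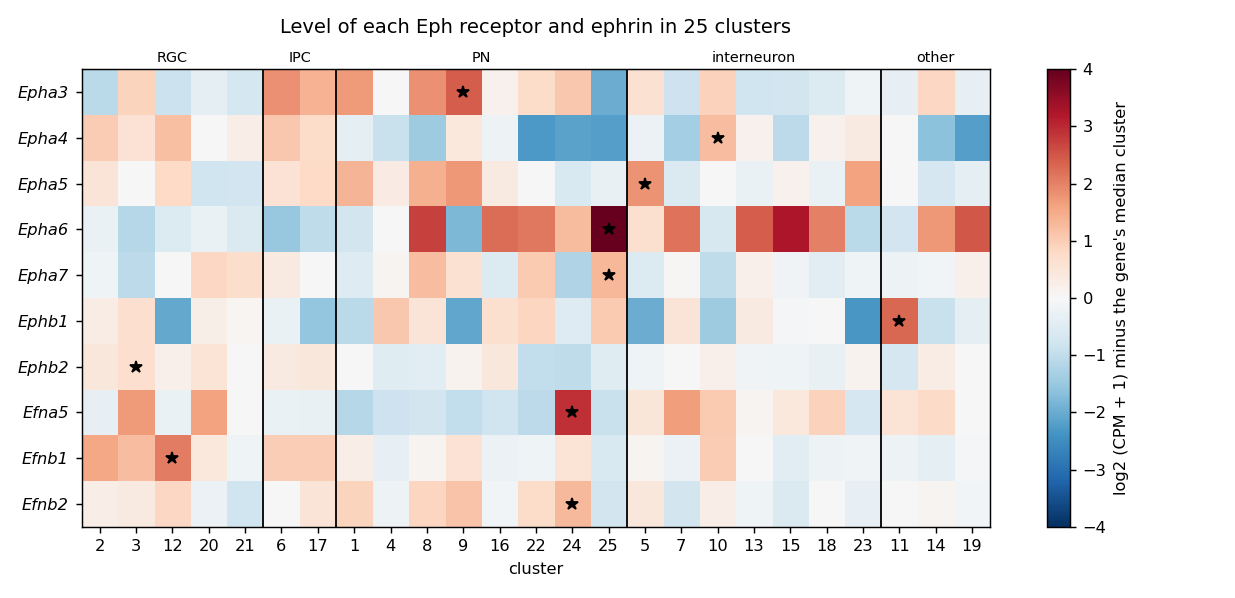
Level of each of the 10 members (rows) in the 25 clusters (columns, grouped by class) as log2(CPM + 1) of the mean over embryos minus the gene's median cluster; a star marks the highest cluster. Epha3 is high along Clusters 6, 9, 8 and 1, Epha6 is low in all RGC and IPC clusters, and Ephb1 and Efna5 each peak in 1 cluster, 11 and 24.

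Among the A-class receptors, Epha3 was highest in the projection neurons of Cluster 9, which the authors take as possibly early ones, at 5155 ± 266 CPM (n = 11). It was 3443 ± 370 in the non-mitotic IPC of Cluster 6, 3409 ± 496 in Cluster 8 and 3122 ± 207 in Cluster 1. RGC of Cluster 2 held 461 ± 117. From Cluster 2 to Cluster 6 the level was thus higher by 2.93 ± 0.46 on the log2 scale (SD, 11 of 11 embryos), and from Cluster 6 to Cluster 9 by another 0.59 ± 0.15 (11 of 11). It was lower in each of the other projection neuron clusters compared, with log2 values against Cluster 9 of -0.61 in Cluster 8, -0.72 in Cluster 1, -2.26 in Cluster 16 and -2.42 in Cluster 4, each in 11 of 11 embryos. The lowest level, 241 ± 121 (n = 7), was in Cluster 25. Cluster 25 holds 124 nuclei with a median of 19112 UMIs, and 7 embryos had at least 10 of them.

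Epha4, a receptor that binds both ligand classes, was highest in dividing interneuron precursors (Cluster 10, 1227 ± 109 CPM) and in RGC of Cluster 12 (1206 ± 129). Cluster 6 (1104 ± 169.5) and Cluster 2 (1068 ± 63.6) followed. The first 2 did not differ beyond their spread, and Cluster 10 was the highest in 7 of 11 embryos. It was lower in several neuron clusters, at 194 ± 38.5 in Cluster 8, 114 ± 40.1 in Cluster 19 and 106 ± 31.5 in Cluster 22. From Cluster 9 to Cluster 8 the log2 difference was -1.89 ± 0.27, with 11 of 11 embryos lower.

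Epha5 ranged from 1067 ± 341 CPM in the RGC of Cluster 20 to 6455 ± 518 in Cluster 5, the interneurons rich in Erbb4, a putative marker of migrating ones. Cluster 9 (6169 ± 251) and Cluster 23 (5649.5 ± 1722) followed, and the order of these 3 was not stable, with Cluster 5 highest in 5 of 11 embryos. From the precursors of Cluster 10 (1821 ± 301.5) to Cluster 5 the log2 difference was 1.84 ± 0.29, and from Cluster 6 to Cluster 9 it was 1.15 ± 0.10, each in 11 of 11 embryos.

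Epha6 had the widest range. It was 1619 ± 396 CPM in Cluster 25 (n = 7), 966 ± 121 in the interneurons of Cluster 15, 679.8 ± 85.8 in Cluster 8, 579.8 ± 169.6 in Cluster 19 and 553 ± 116 in Cluster 13. All RGC and IPC clusters lay between 35.2 (Cluster 6) and 85.0 CPM (Cluster 2), and the lowest level was 28.9 ± 14.7 in Cluster 9. Between Clusters 9 and 8, both projection neurons, the log2 difference was 4.67 ± 0.82 (11 of 11 embryos), so Epha3 and Epha6 ran in opposite directions there. Between Clusters 8 and 25 Epha6 was higher by 1.26 ± 0.46 while Epha3 was lower, with a log2 difference of -3.92 ± 0.78 (7 of 7 embryos for each).

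Epha7 had the smallest ratio of highest to lowest level among the A-class receptors, from 114 ± 70.6 CPM in Cluster 24 to 663 ± 180 in Cluster 25 (n = 7), with Cluster 8 (618 ± 62.1) and Cluster 22 (545 ± 122) next. Cluster 25 was the highest in 3 of 7 embryos, so the first place was not settled. In RGC its level was 462 ± 343 in Cluster 20, 427 ± 156 in the cortical hem cells of Cluster 21, 232 ± 21.4 in Cluster 2 and 126 ± 20.6 in the interneuron precursors of Cluster 3. From Cluster 2 to Cluster 3 the log2 difference was -0.88 ± 0.19, lower in 11 of 11 embryos.

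Of the B-class receptors, Ephb1 stood out in the striatal neurons of Cluster 11 with 2196 ± 169 CPM, highest there in 11 of 11 embryos. Cluster 4, the projection neurons with the subcortical marker Fezf2, followed at 929 ± 70.0 and Cluster 25 at 927 ± 211. The step from first to second place was 1.24 ± 0.18 on the log2 scale. Within the same classes Ephb1 also showed low clusters. In RGC it was 712 ± 114 in Cluster 3 and 541 ± 136 in Cluster 2 but 106 ± 33.4 in the non-mitotic Cluster 12, and in interneurons it was 634 ± 49.9 in Cluster 7 but 112 ± 27.7 in Cluster 5 and 87.1 ± 59.4 in Cluster 23. Between Clusters 11 and 5 the log2 difference was -4.32 ± 0.43 (11 of 11 embryos lower).

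Ephb2 was the most even member. It was 429 ± 44.7 CPM in Cluster 3, 394 ± 48.5 in Cluster 20 and 370 ± 28.7 in Cluster 2, and its lowest levels were 136 ± 10.6 in Cluster 22 and 133 ± 63.6 in Cluster 24. All 5 RGC and both IPC clusters lay between 269 and 429 CPM. In Cluster 11, where Ephb1 peaked, Ephb2 held 169 ± 25.4 CPM, and only Clusters 22 and 24 were lower.

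Among the ligands, Efna5, the A-class ephrin, was highest in Cluster 24, a projection neuron cluster of 275 nuclei, at 2309 ± 529 CPM (n = 10), where it led in 10 of 10 embryos. Cluster 3 followed at 977 ± 334, Cluster 7 at 958 ± 359 and Cluster 20 at 931 ± 265, and these did not differ beyond their spread. The other 7 projection neuron clusters held 138 to 180.2 CPM. From Cluster 22 to Cluster 24 the log2 difference was 4.08 ± 0.61 (10 of 10 embryos). RGC of Cluster 3 exceeded those of Cluster 2 by 2.03 ± 0.26 (11 of 11).

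Efnb1, the X-linked B-class ephrin, was highest in 3 RGC clusters, with 103 ± 8.78 CPM in Cluster 12, 73.3 ± 8.40 in Cluster 2 and 58.6 ± 8.41 in Cluster 3. The other RGC clusters, 20 (32.7 ± 13.6) and 21 (21.4 ± 7.15), lay within the 15.5 to 36.8 CPM of the projection neurons. Each of the first 2 steps was larger than its SD, and Cluster 12 was the highest in 11 of 11 embryos. Efnb2 was spread more broadly, from 129 ± 33.4 in Cluster 21 to 549 ± 73.0 in Cluster 24 (n = 10) and 501 ± 20.5 in Cluster 9. From Cluster 6 to Cluster 9 it was higher by 1.17 ± 0.13 on the log2 scale in 11 of 11 embryos, the same step at which Epha3 and Epha5 were higher.

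**Figure D2:**
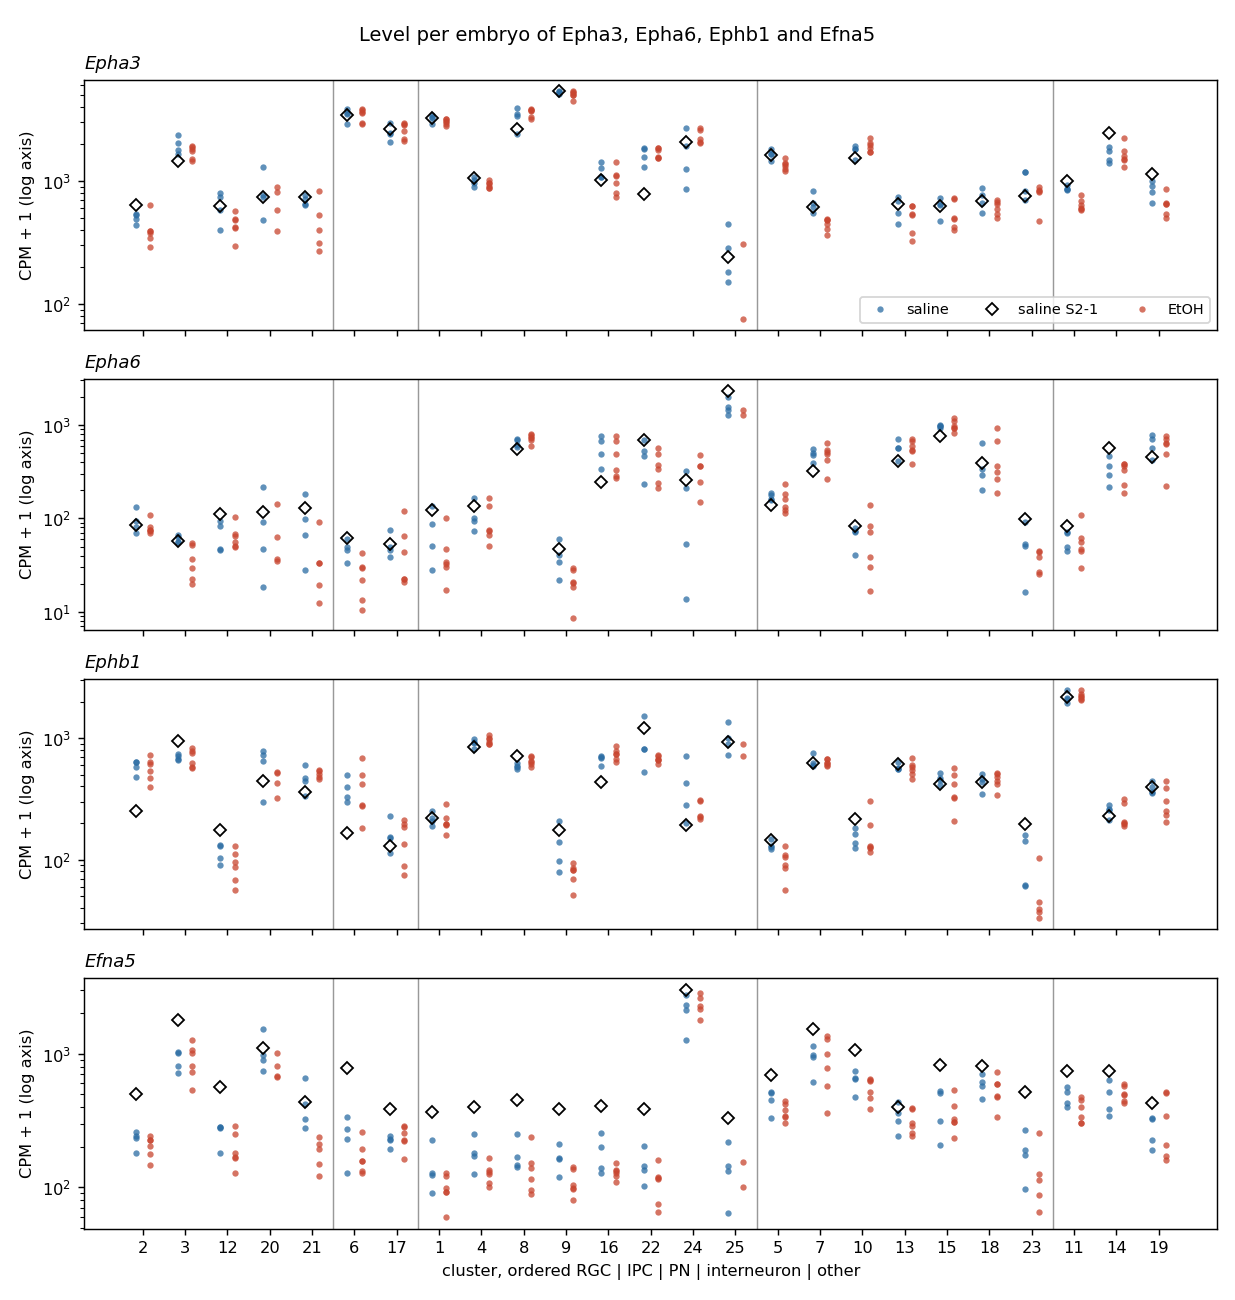
CPM + 1 on a log axis of Epha3, Epha6, Ephb1 and Efna5 in each cluster, 1 point per embryo with at least 10 nuclei (blue saline, red EtOH, open diamond saline embryo S2-1). High and low clusters recur across embryos while neighbouring clusters often change places, and S2-1 has the highest Efna5 in 21 of 25 clusters.

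Over the 25 clusters, the log2 levels of some members ran together and others apart (Pearson r of means that share libraries, given as a description). The highest values were 0.70 between Epha3 and Efnb2, 0.65 between Epha4 and Efnb1 and 0.64 between Epha4 and Ephb2. The lowest were -0.74 between Epha4 and Epha6, -0.60 between Epha6 and Efnb1 and -0.56 between Epha5 and Efna5. Compared with 10987 genes at 5 CPM or more, Epha3 was most like Frmd4b (0.88), Tspan14 and 2600014E21Rik, Epha4 most like Rbm7 (0.91), Bmpr2 and Wdr20, Epha5 most like Gm20687 (0.78), Gm42439 and Nedd4l, and Epha6 most like Klhdc1 (0.89), Rims4 and Crhr1. Epha7 had no close match, with 0.66 for Hexa, followed by Ptprk and Smarca2. Ephb2 was most like Osbpl11 (0.82), Nfkbil1 and Cbx2, Efnb1 most like Rnaseh2a (0.93), Trnt1 and Gm20388, and Efnb2 most like Gm45075 (0.90), Gars and Fchsd2. The genes nearest to Ephb1 were Gm26846 (0.99) and 9630041A04Rik (0.97), ahead of Gm15738 (0.75). Both of the former overlap Ephb1 on the opposite strand, and whether the counting used the strand was not given in the sources used here, so these 3 may share reads. Epha6 overlaps Gm9017 and Epha7 overlaps Gm11915.

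The share of nuclei with at least 1 UMI was compared after thinning each nucleus to 2000 UMIs, which left out 177 saline and 210 EtOH nuclei with fewer. At that depth Epha3 was found in 99.9% ± 0.3 of nuclei in Cluster 9 and in 26.1% ± 12.3 in Cluster 25, Epha6 in 82.2% ± 9.4 in Cluster 25 and 5.36% ± 3.49 in Cluster 6, Ephb1 in 89.0% ± 3.95 in Cluster 11 and 11.6% ± 6.0 in Cluster 23, and Efna5 in 87.7% ± 8.1 in Cluster 24 and 15.5% ± 7.8 in Cluster 22. Efnb1 was found in 19.5% ± 2.4 in Cluster 12 and 0.714% ± 1.89 in Cluster 25, and Epha5 ranged from 59.0% in Cluster 20 to 99.9% in Cluster 9. Free RNA also gives UMIs in nuclei that do not express a gene, so a share near a member's lowest one cannot be told apart from background. Without thinning, the shares of Epha3 ran from 66.1% in Cluster 12 to 99.9% in Cluster 9.

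The comparison of EtOH with saline asked whether prenatal alcohol exposure changed these genes in the clusters. Counts summed per embryo and cluster were tested with edgeR's quasi-likelihood test, with p-values adjusted over all genes tested in the cluster, and called at an adjusted p under 0.05 with a fold change below 0.8 or above its inverse. Of 246 tests of members in the 25 clusters, 5 were called, all of them lower in EtOH, and 0 were higher. That is 2.03% called lower, beside a background of 0.35% over all 217253 gene and cluster tests in that direction and 0.442% in the other. The count was 1 when any of 8 of the 11 embryos was left out and 25 without S2-4, where the background was 2.61%. The called ones were Epha3 in Clusters 11 and 5, Epha7 in Cluster 1, Ephb2 in Cluster 11 and Efnb1 in Cluster 16. Fold changes are those of the fit, which scales the libraries (TMM), whereas the CPM listed below lack that scaling. The ratio of the mean CPM was above 0.8 for Epha3 in Cluster 5, Epha7 in Cluster 1 and Ephb2 in Cluster 11. At an unadjusted p under 0.05 there were 56 member tests, or 22.8%, beside 17.4% over all genes. The fold was below 1 in 177 of the 246 tests (72.0%, beside 49.0% over all genes), with a median log2 value of -0.15 beside 0.01. Members share embryos and clusters, so these tests are not independent, and in summed counts fewer nuclei with a transcript and less RNA per nucleus cannot be told apart.

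**Figure D3:**
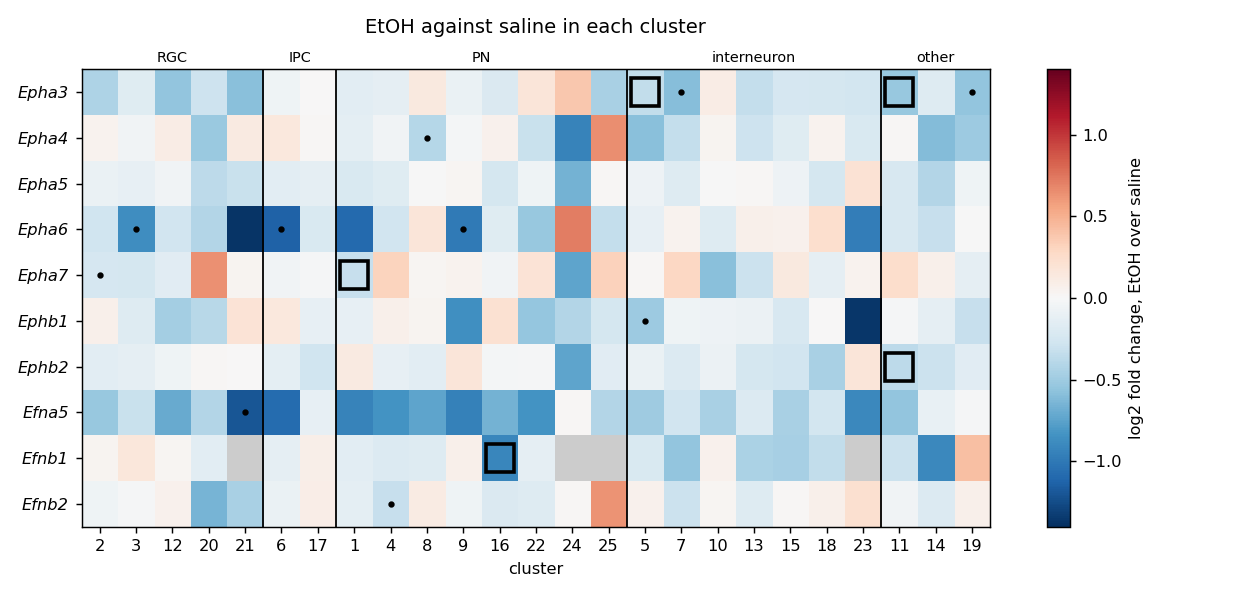
log2 fold change of EtOH over saline from the edgeR fit for each member (rows) and cluster (columns, grouped by class). Squares mark the 5 called pairs, dots mark the other 10 pairs with an adjusted p under 0.1, and grey cells could not be tested; blue, lower in EtOH, prevails for Efna5, which was lower in 24 of 25 clusters.

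Epha3 in the striatal neurons of Cluster 11 was the steadiest difference. The saline embryos held 855 (S1-1), 843 (S1-2), 1001 (S2-1), 929 (S2-2) and 860.3 CPM (S2-4). The EtOH embryos held 578 to 773 CPM with a median of 617. Every EtOH embryo lay below every saline embryo, and thus also within each batch. In this cluster 39 of 10185 genes were called lower (0.383%). The log2 fold change of Epha3 was -0.54 ± 0.08 (SE, adjusted p = 0.0120 by edgeR), a 1.45-fold lower level in the fit. It was called under 18 of 19 alternative settings, batch as a term included (adjusted p = 0.0110), and was not called with counts summed per dam (adjusted p = 0.0876). Within batches the means were 849 and 704 CPM in batch 1 and 930.1 and 613 CPM in batch 2, saline first.

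In Cluster 5, the interneurons with the highest Epha5, Epha3 held 1812, 1666, 1634, 1651 and 1464 CPM in saline (S1-1, S1-2, S2-1, S2-2, S2-4) and 1215 to 1531 in EtOH (median 1343). EtOH embryo E2-3 overlapped the saline range. The log2 fold change was -0.34 ± 0.08 (adjusted p = 0.0448 by edgeR), where 0.813% of genes were called lower. With batch as a term it was not called (adjusted p = 0.0511), and among the alternatives that leave out an embryo it was called only without S2-4 (adjusted p = 0.00101).

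Ephb2 was also lower in Cluster 11. Saline embryos held 164, 195, 222, 189.6 and 171 CPM and EtOH embryos 143 to 176 (median 146), with E1-2 alone inside the saline range. The log2 fold change was -0.37 ± 0.09 (adjusted p = 0.0450 by edgeR), and with batch as a term the adjusted p was 0.0568. Among the alternatives that leave out an embryo it was called only without E1-2 (adjusted p = 0.0362) or S2-4 (0.00109). In batch 1 the groups overlapped, and in batch 2 they did not.

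Epha7 in Cluster 1, projection neurons, held 244, 205, 179.6, 197 and 183 CPM in saline and 158 to 179.3 in EtOH (median 164). The groups met without overlap, the highest EtOH embryo at 179.3 and the lowest saline embryo at 179.6. The log2 fold change was -0.32 ± 0.08 (adjusted p = 0.0412 by edgeR), and 1.69% of genes were called lower in this cluster. With batch as a term the log2 value was -0.30, inside the limits on the fold, after thinning the adjusted p was 0.62, and with a random effect of the dam it was 0.0547. Among the alternatives that leave out an embryo it was called only without S2-4 (adjusted p = 0.00159).

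Efnb1 in Cluster 16, projection neurons with Fezf2 that the authors place caudally, was low in both groups. Saline embryos held 28.3, 26.4, 27.4, 35.4 and 21.3 CPM, from 7 to 81 UMIs, and EtOH embryos 10.2 to 18.1 (median 14.8), from 3 to 16 UMIs. All EtOH embryos lay below all saline embryos, and thus also within each batch. The log2 fold change was -0.92 ± 0.21 (adjusted p = 0.0484 by edgeR), where 0.247% of genes were called lower. It stayed called with batch as a term (adjusted p = 0.0492), was not called with a random effect of the dam (0.0511) or with sums per dam (0.297), and was called, among the alternatives that leave out an embryo, only without S2-4 (adjusted p = 0.00298).

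**Figure D4:**
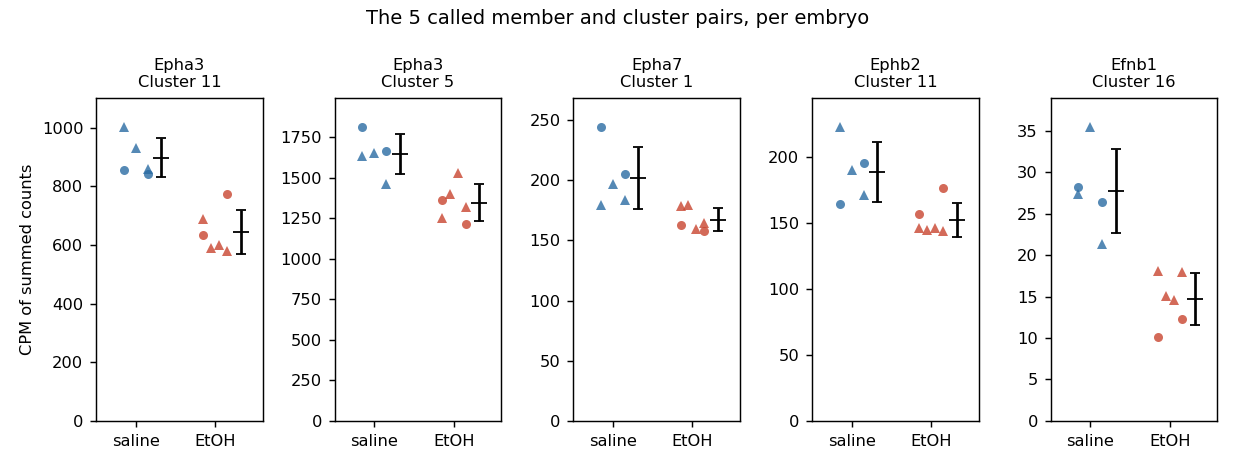
CPM per embryo in saline (blue) and EtOH (red) for the 5 called pairs, circles for batch 1 and triangles for batch 2, with the mean and SD as bars; axes start at 0. Groups do not overlap for Epha3 in Cluster 11, Epha7 in Cluster 1 and Efnb1 in Cluster 16.

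Where each member was highest, the groups overlapped and no difference passed the test. Epha3 in Cluster 9 held 5374, 5249, 5379.8, 5312 and 5083 CPM in the saline embryos (S1-1, S1-2, S2-1, S2-2, S2-4, as in all lists of saline values) and 4473 to 5343 in EtOH (median 5115), with a log2 fold change of -0.09 ± 0.07 (adjusted p = 0.473 by edgeR). Epha4 in Cluster 10 held 1272, 1250.3, 994, 1131 and 1264 CPM against 1095 to 1345 (median 1287; log2 0.04 ± 0.09). Epha5 in Cluster 5 held 6968, 6724, 6136, 6444 and 6290.4 CPM against 5748 to 7299 (median 6151; -0.08 ± 0.09). Both groups thus kept high Epha3 in Cluster 9, high Epha4 in dividing precursors and high Epha5 in Erbb4-rich interneurons. Ephb1 in the striatal neurons of Cluster 11 held 2077, 2149, 2183, 2479 and 1927 CPM against 2042 to 2469 (median 2208; -0.01 ± 0.08, adjusted p = 0.956 by edgeR), in the same cluster in which Epha3 and Ephb2 were lower. Efnb1 in Cluster 12 held 87.9, 94.1, 96.9, 105 and 116 CPM against 96.7 to 113 (median 106; 0.03 ± 0.10). Epha6 in Cluster 15, its highest cluster with all 11 embryos, held 985, 982, 754, 1011 and 929 CPM against 811 to 1199 (median 962; 0.06 ± 0.11). In Cluster 25, the highest of Epha6 and Epha7, only 2 EtOH embryos had at least 10 nuclei, and 0 of 5212 genes were called. A p above the threshold does not show that the levels of the 2 groups were equal.

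Another 10 pairs had an adjusted p between 0.05 and 0.1 and were not called, all with a fold below 1. The larger ones were Efna5 in Cluster 21 (log2 -1.20, adjusted p = 0.0632), Epha6 in Clusters 6 (-1.13, 0.0891), 9 (-0.995, 0.0955) and 3 (-0.87, 0.0588), and Epha3 in Cluster 7 (-0.60, 0.0563) by edgeR. In the cortical hem cells of Cluster 21, Efna5 held 277, 661, 437, 418 and 325 CPM in the saline embryos and 121 to 235 in 5 EtOH embryos, without overlap, while the sixth, E2-1, had 3 nuclei and was left out with 1517 CPM from 22 UMIs. Groups did not overlap either for Epha4 in Cluster 5 (log2 -0.59, adjusted p = 0.126), Epha3 in Cluster 7 (544 to 829 against 362 to 489 CPM) and Epha6 in Cluster 3 (54.3 to 65.7 against 18.9 to 53.3 CPM). The reverse, every EtOH embryo above every saline embryo, was seen for Efnb2 in Cluster 12 (log2 0.06, adjusted p = 0.67) and Epha7 in Cluster 7 (log2 0.29, adjusted p = 0.16). All pairs without overlap come from 246 member tests. How often groups did not overlap over all genes is not given here, so these pairs are a description. Whether an effect differed between clusters was not tested.

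Efna5 had the most uniform direction, lower in EtOH in 24 of 25 clusters with a median log2 value of -0.49, and was called in 0 of them by edgeR with 8 at an unadjusted p under 0.05. That count was 6 with sums per dam, 4 without S2-4, 1 after thinning and 0 without S2-1, and Efna5 in Cluster 21 was called under 7 of 19 alternatives. Over all nuclei the saline embryos held 384, 481, 968, 364 and 313 CPM and the EtOH embryos 227 to 467 (median 329). The value of 968 belongs to S2-1, which was the highest of all embryos for Efna5 in 21 of 25 clusters. S2-1 also had the largest share of interneurons (37.7% of its nuclei, beside 18.1% to 33.1% in the others) and of Cluster 3 nuclei (14.45%, beside 4.13% to 9.05%), both of which carry Efna5, and the highest thalamic marker sum (826 CPM, beside 575 to 777), and the part of these in its Efna5 level was not tested. Without S2-1 Efna5 was lower in 21 of 25 clusters with a median of -0.35. It was then no longer first, with Epha6 lower in 22 clusters and Epha5 and Ephb2 in 21 each. With sums per dam, Efna5 and Epha5 were each lower in 24 of 24. The share of nuclei with an Efna5 UMI at 2000 UMIs was lower in EtOH in 25 of 25 clusters, with a median difference of -9.77 percentage points, and without S2-1 in 22 of 25 with a median of -5.85.

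For the other 9 members, and beside 49.0% of tests over all genes, the log2 value was below 0 in 21 clusters for Epha5, 20 each for Epha3 and Ephb2, 19 for Epha6, 18 for Ephb1, 15 for Epha4, 14 for Efnb2, 12 for Epha7, and 14 of 21 tested for Efnb1. After thinning to 2000 UMIs it was below 0 in 11 of 24 clusters for Efnb2, 11 of 22 for Epha4 and 13 of 24 for Ephb1. Without S2-1 it was below 0 in 17 clusters for Epha7, whose median turned from 0.02 to -0.04, and in 19 for Epha4, whose median moved from -0.05 to -0.12. At equal depth, among members found in at least 5% of nuclei of a cluster, 185 of 239 shares (77.4%) were lower in EtOH, beside 50.4% of 137544 over all genes. The median difference ran from -0.82 points for Efnb2 (lower in 16 of 25 clusters) to -12.2 for Epha3 (22 of 25), with -1.73 for Epha7 (13 of 25). Leaving out 1 embryo moved Efnb2 between -0.016 (without S2-2) and -2.65 (without E1-1). Epha7 moved between -0.28 (without S1-1) and -2.51 (without S2-1), and Epha3 between -10.8 (without S1-1) and -15.6 (without E1-2).

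For several members the differences were more negative in clusters with a low level. Epha3 had log2 values between -0.09 and 0.14 in its 3 highest clusters (9, 6 and 8) and between -0.55 and -0.44 in its 3 lowest, and Epha6 between -0.34 and 0.17 against -1.13 and -0.87. Ephb1 was at -0.01 in Cluster 11 and between -1.36 and -0.48 in its 3 lowest clusters. Efna5 was at 0.01 in Cluster 24 and between -0.95 and -0.83 in its 3 lowest. The 3 lowest clusters of Epha4 (-0.51 to 0.65) and Efnb2 (-0.45 to 0.62) did not share a sign. Summed over the members, the value was below 0 in 109 of 127 tests in the 13 lower clusters of each member (85.8%) and in 68 of 119 in the 12 higher ones (57.1%). Over the 25 clusters, the Spearman correlation of the log2 ratio of the group means with the level was above 0 for 10 of 10 members, from 0.24 (Efnb2) to 0.82 (Epha3) with a median of 0.57. Over 10978 genes at 5 CPM or more, the median was 0.26 and 84.8% were above 0, and over the 5879 of these whose highest cluster was at least 3 times the lowest, as in all members, it was 0.31 and 88.0%. The level and the ratio come from the same libraries, so this is a description. Without S2-1 the members' median was 0.54 and that of all genes 0.20.

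Markers of other classes were summed in Clusters 1, 5, 7, 9, 11 and 16. Each held a member that was called or had an adjusted p under 0.1 by edgeR. Clusters without such a member were not compared, so whether the markers move with the members cannot be seen here. In Cluster 16, the sum of the 4 interneuron markers was 32.1 to 137 CPM in saline (median 71.8) and 5.82 to 43.5 in EtOH (median 25.01), with 5 of 6 EtOH embryos below every saline embryo. In Cluster 1 it was 35.7 to 109.7 (median 61.2) against 23.6 to 51.3 (median 32.2). In Cluster 9 it was 43.2 to 115 against 6.29 to 47.8. On average, 4 of these 4 genes were lower in EtOH in Cluster 1, and 3 of 4 in Clusters 16 and 9. The 5 radial glial markers in Cluster 1, where Epha7 was called, summed to 67.2 to 87.5 CPM in saline and 52.1 to 78.3 in EtOH, with 5 of 5 genes lower on average and 4 of 6 EtOH embryos below every saline embryo. In Cluster 7, where Epha3 did not overlap, the 3 projection neuron markers summed to 42.1 to 82.3 against 29.6 to 74.1 CPM, with 4 of 6 EtOH embryos below every saline embryo. The same 3 markers were closer in Cluster 11 (29.8 to 73.8 against 27.1 to 62.9 CPM) and in Cluster 5 (49.5 to 102 against 48.5 to 84.2). On average all 3 were lower in EtOH in Clusters 7, 11 and 5. The radial glial markers summed to 66.8 to 107 (median 72.0) against 60.8 to 155 CPM (median 92.0) in Cluster 11. In Cluster 5 they summed to 149 to 207 against 111 to 215 CPM, and 3 of 6 EtOH embryos lay below every saline embryo. In each of these clusters only 2 of the 5 radial glial markers were lower in EtOH on average. In Cluster 16, where Efnb1 was called, they summed to 47.0 to 107 (median 98.3) against 59.6 to 94.9 CPM (median 81.8). There 0 of 6 EtOH embryos lay below every saline embryo, and 3 of 5 markers were lower on average. None of these markers was at 0. Their part in the differences of the members was not tested.

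**Figure D5:**
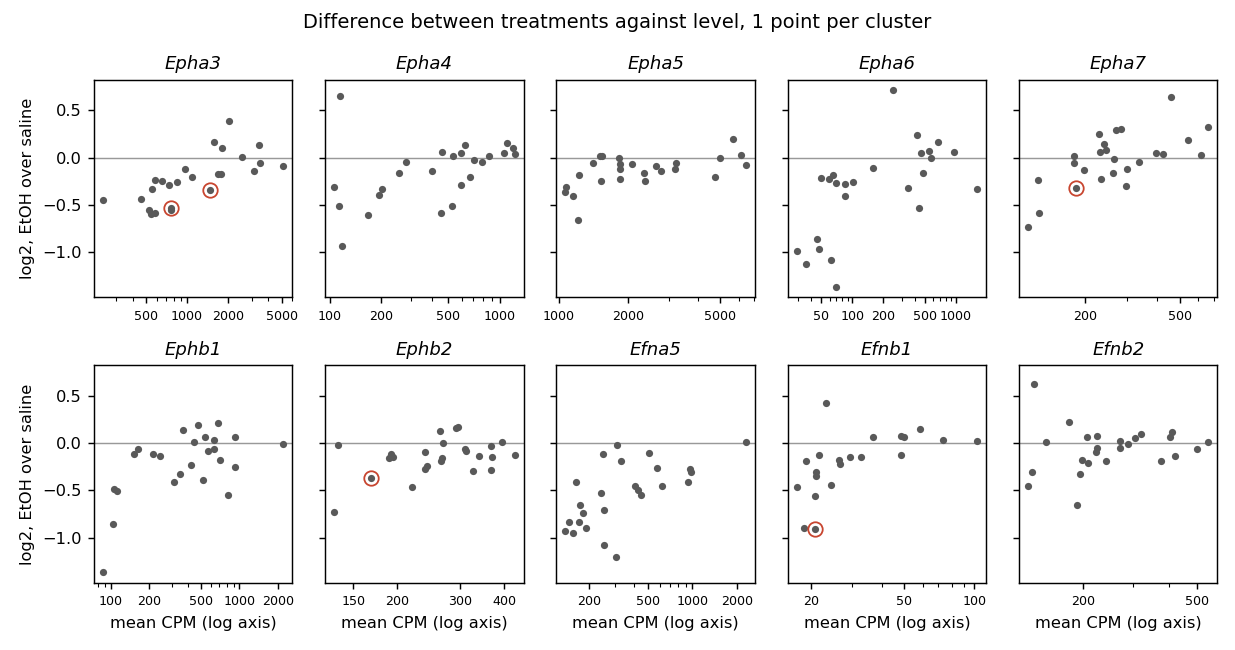
log2 fold change of EtOH over saline (edgeR) against the mean CPM on a log axis, 1 point per cluster and 1 panel per member, with called pairs circled in red. For Epha3 the 3 lowest clusters lie between -0.55 and -0.44 and the 3 highest between -0.09 and 0.14.

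Summed over all nuclei of an embryo, a fit that also moves with the make-up of the clusters, 0 of 10 members were called, beside 12.1% of 18138 genes (3.55% lower and 8.55% higher). An unadjusted p under 0.05 was seen for 2 members (20%), beside 38.1% of all genes. Ephb2 had an adjusted p of 0.0336 by edgeR at a log2 value of -0.22, inside the limits on the fold, with 265, 293, 326, 331 and 273 CPM in saline and 241 to 280.3 in EtOH. Efnb1 had -0.21 (adjusted p = 0.0635) and Efna5 -0.62 (adjusted p = 0.156), which was -0.24 (adjusted p = 0.47) without S2-1. The remaining 7 members lay between -0.15 and 0.02. On the plain CPM scale, which lacks the TMM scaling of the fit, the means of Epha6 (233 in saline, 235 in EtOH), Ephb1 (554 and 575) and Efnb2 (271 and 273) were slightly higher in EtOH. For the other members too, the fit gave a lower value than the ratio of the plain CPM means. The part of the scaling in this was not tested.

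The rest of the family was scarce: among the other 12 genes, Epha10, Ephb3, Ephb4 and Efnb3 passed 20 CPM in any cluster. Efnb3 was 55.4 ± 9.83 CPM in Cluster 7, Ephb4, a receptor known from blood vessels, 51.0 ± 9.98 in Cluster 12, Epha10, whose kinase is held to be inactive, 25.97 ± 13.7 in Cluster 25, and Ephb3 20.1 ± 11.7 in Cluster 20. In 83 cluster tests of 8 of these genes 0 were called by edgeR, beside 0.792% over all genes. An unadjusted p under 0.05 was reached in 5 (6.02%), beside 17.4% over all genes. Unlike the members, these genes had a fold below 1 in a minority of tests, 29 of 83 (34.9%), with a median log2 value of 0.09. They passed the filter on low counts in 4 to 20 clusters each, and the members in 21 to 25. The shares of the lists thus rest on unlike tests, and their difference was not tested. Over all nuclei 2 of the 11 tested genes of this list were called (18.2%), beside 12.1% of all genes. By edgeR, Epha8 was higher in EtOH (log2 0.87, adjusted p = 0.0162, 1.11 ± 0.16 against 2.09 ± 0.56 CPM) and Ephb4 was lower (log2 -0.37, adjusted p = 0.0471). Epha8 was called under 16 of 18 alternatives and Ephb4 under 4 of 18, and in batch 1 Ephb4 was not lower (12.8 CPM in saline, 12.99 in EtOH). Of 25 signalling partners, 24 were tested in clusters, where 404 of 542 tests (74.5%) had a fold below 1, close to the share of the members, and 3 of 542 cluster tests (0.554%) were called, beside 0.792% over all genes in either direction and 0.35% lower, all of them lower: Rock2, a kinase downstream of RhoA, in Cluster 2 (log2 -0.33, adjusted p = 0.0389), Chn1, a Rac GTPase-activating protein that acts below Epha4, in Cluster 5 (-0.35, 0.0358), and the adaptor Grb10 in Cluster 18 (-0.84, 0.0161). Over all nuclei Ngef, the ephexin that links EphA receptors to RhoA, was higher (0.65, 0.0233) and Grb10 lower (-0.38, 0.0180), 2 of 25 partners beside 12.1% of all genes. Rock2 was called under 4 of 19 alternatives, Chn1 under 7 of 19 and Grb10 in Cluster 18 under 11 of 19, whereas over all nuclei Ngef was called under 15 of 18 and Grb10 under 16 of 18. Without S2-1 the adjusted p was 0.0877 for Rock2, 0.108 for Chn1, 0.0651 for Grb10 in Cluster 18, 0.0792 for Ephb4 and 0.0531 for Ngef.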

How the data were processed

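The count tables of 11 cortices were analysed here, from nuclei sequenced with 10X Genomics 3′ chemistry (version 3.1). The authors' pipeline ran Cell Ranger on mm10, filtered nuclei and genes in Seurat (4.1.0), clustered the nuclei and deposited 1 table of raw UMI counts per embryo and cluster (275 tables, unnormalized), which were used as they stand. The steps that could change the values here are the authors' filters and clustering, and removal of doublets or free RNA was not given in the sources used here. Counts were summed per embryo and cluster and, separately, over all nuclei, and tested with edgeR 4.0.16 (limma 3.58.1, R 4.3.3): TMM scaling, filterByExpr, robust quasi-likelihood fit, no covariate, Benjamini-Hochberg adjustment over all genes tested, embryos with at least 10 nuclei. The models were tested on simulated data. Alternatives were DESeq2 1.42.0, upper quartile scaling, no filter, batch as a term, sums per dam, limma voom with a random effect of the dam, thinning to 2000 UMIs, at least 20 nuclei and leaving out each embryo. CPM, shares (thinned to 2000 or 1000 UMIs) and correlations were computed in Python 3.11.15. Correlations used log2(CPM + 1) and genes at a mean of at least 5 CPM. The members, gene lists and rules were chosen with earlier results of these data known: all members were named, other family genes where called or above 20 CPM in a cluster, partners where called, and for each member the 3 most similar genes (those of Efna5 are not reported here). Littermates differed by more than sampling noise, most of all those of saline dam S2. The chi-square per gene was 48.8 to 89.7 between embryos of S2 and 4.33 to 12.3 between littermates of the other dams. Labels tie treatment pairs to 2 batches, and deviations from the group mean correlated with a median of -0.02 within and 0.03 between batches. Coordinates are those of GENCODE M21 on GRCm38 and RefSeq on GRCm38.p6.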

Additional observations from a re-analysis of the deposited data

Results flagged for a closer look

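Efna5 in saline embryo S2-1 was set apart from the other saline embryos over all nuclei, at 968 CPM beside 313 to 481, with a gap to the nearest embryo of 0.744 of the range against a critical value of 0.71 (Dixon's test). It was 1 of 48 groups of embryos looked at, and chance alone sets about 1 in 20 apart. No other member did so over all nuclei, in its highest cluster or in a called cluster.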

How the results depend on the processing

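The count of called member and cluster pairs, 5, changed most with the processing, and every pair called under any setting was lower in EtOH. It was 18 with DESeq2, 28 with no filter on low counts, 13 with counts summed per dam, 10 in limma voom with a random effect of the dam, 5 after thinning, 5 with at least 20 nuclei, 1 with upper quartile scaling and 2 with the replicate block (batch as a term). Of the 5 pairs reported, the sums per dam kept 0, thinning 1, the block 2 and the random effect 3, and DESeq2, no filter and at least 20 nuclei kept 5. Leaving out 1 embryo gave 1 to 25 calls: 25 without S2-4, 4 without E1-2, 2 without S1-1 and 1 without S1-2, S2-1, S2-2, E1-1, E2-1, E2-2, E2-3 or E2-4. The share of all gene tests called lower moved too, from 0.35% to 0.949% with DESeq2, 1.09% with no filter, 0.611% with the random effect, 0.295% with sums per dam, 0.315% after thinning, 0.233% with upper quartile scaling, 0.188% with the block, 2.61% without S2-4 and 0.0229% to 0.154% without any other embryo. Epha3 in Cluster 11 was among the calls in all of these except the sums per dam. For the other calls lost the cause was not tested. The fold was below 1 in 144 of 223 member tests after thinning and in 210 of 250 with no filter, with the other settings between these shares. Over all nuclei no alternative called a member. Small values there changed sign: Epha6 (-0.07) ran from -0.126 without S2-4 to 0.028 without E1-1 and was also above 0 without S1-1, Epha7 (0.02) was -0.060 with sums per dam and ran from -0.063 without S2-1 to 0.11 without S1-1, with E2-1 also turning it, and Ephb1 (-0.02) was 0.0022 with upper quartile scaling and 0.021 after thinning and ran from -0.061 without S2-4 to 0.0072 without E2-4, with E1-1, S1-1 and S1-2 also turning it. The cluster with the highest level was the same for 10 of 10 members in every alternative except batch 1 alone (8 of 10), and that with the highest share was the same for 5 of 10 members when nuclei were not thinned and for 8 to 10 of 10 otherwise. The analysis without S2-1 and S2-4 of the correlation with level was chosen after seeing the data. Clusters 20, 21, 23, 24 and 25 lack some EtOH embryos, which limits their precision, and intervals over embryos do not cover the 2 dams per treatment.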
